A study of Rattus norvegicus with 24 samples.

Results

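The genes described here are 68 genes of the rat hippocampus whose RNA was higher after corticosterone in nearly every comparison of single libraries. They were chosen by measured values. A gene was taken when its mean over all 24 libraries was at least 1 CPM (a gene's read count divided by the library's total over all genes, times 1e+06) and when a corticosterone library exceeded a vehicle library in at least 92% of the 144 possible pairs, which means in at least 133 pairs. Of 32883 genes in the count table, 13796 reached the mean level, and 71 of these (0.515%) met the pair rule. The rule leaves out 7 identifiers, of which 3 had met it, so 68 members remained. Taken in the other direction, with vehicle above corticosterone, the pair rule was met by 13 genes, or 0.0942%. Because the members were chosen on the corticosterone difference, their difference from vehicle is given as a description. The size of the difference and the spread between libraries were also compared between training states, a contrast the rule does not name but bears on. Of the 144 pairs, 72 set libraries of one training state against those of the other and the rest lie within a state, so a gene that rose in 1 state only, moved with training or spread widely was unlikely to be taken. Values for the members in those comparisons are therefore given beside those of all genes, and likeness between the states is not read as a result.

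Corticosterone is the main glucocorticoid hormone of the rat and is released from the adrenal gland under stress and in a daily rhythm. It enters cells and binds the mineralocorticoid and the glucocorticoid receptor, both present in the hippocampus, and the bound receptors act in the nucleus as transcription factors that raise some genes and lower others. The hippocampus is needed for forming memories of places and events, and glucocorticoids released around a learning experience are known to affect how well it is remembered.

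The samples came from the hippocampus of male Sprague-Dawley rats, an outbred albino laboratory strain, and the study addresses memory formation enhanced by glucocorticoids. Its 4 groups were 7 libraries of untrained rats given vehicle, 6 of untrained rats given corticosterone, 5 of trained rats given vehicle and 6 of trained rats given corticosterone. The labels name neither the training task, the age, the dose nor the time between treatment and sampling. Nothing in them ties each sample to its own animal, so p-values reflect only how these samples vary. Sample numbers serve as replicate numbers below.

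Each library held between 13760331 and 16765088 reads in genes, with a median of 15754782. In 8 libraries the first principal component of all genes was high, and the gene that loaded most on it stood at 1748 to 4674 CPM, against 5.70 to 458 CPM in the other 16. These 8 libraries were unevenly placed, since 6 were corticosterone libraries (untrained replicates 19, 29 and 39, trained replicates 8, 33 and 40) and 2 were vehicle libraries (untrained replicate 17, trained replicate 5). With these 8 left out, 54 of the 68 members had at least 92% of pairs higher with corticosterone, the median share was 98.3%, and the lowest was 85%. The pairs that remain are part of those that chose the members. High shares were therefore favoured in advance, and these values are a description. The part of these libraries in the differences below was not tested beyond the values given without them. The table gives Ensembl identifiers with no gene symbols, and 0 of them matched the reference table at hand. No function is therefore given for any member, and the tissue label could not be set against marker genes. Members are numbered from 1, the largest fold change averaged over training, to 68, the smallest. Levels of single libraries are CPM over the sum of gene counts, and fold changes come from an edgeR model of the 4 group means with TMM library factors. The levels of the gene that loaded most on the first principal component are an exception. They are CPM over the genes kept for testing, with TMM library factors. In a bulk sample, a change in RNA per cell and a change in the number of cells that hold it cannot be told apart.

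Member 1, ENSRNOG00000017198, was a low-level gene that stood well above vehicle in both training states. In untrained vehicle rats it ranged from 0.696 to 1.47 CPM with a median of 0.962 (11 to 24 reads). In untrained corticosterone rats it ranged from 4.70 to 7.38 CPM with a median of 5.13 (72 to 118 reads). The highest vehicle library thus lay well under the lowest corticosterone library. In trained vehicle rats the 5 libraries held 0.921, 0.932, 1.27, 1.31 and 1.91 CPM. In trained corticosterone rats the range was 3.06 to 8.95 CPM with a median of 5.57, and again the groups did not overlap. Without training the fold change was 5.15, and with training it was 4.58 (averaged log2 fold change 2.28 ± 0.17, SE).

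Member 2, ENSRNOG00000025121, also stood apart from vehicle in all 12 corticosterone libraries. In untrained rats it ranged from 1.64 to 2.36 CPM with vehicle (median 2.11) and from 4.85 to 8.06 CPM with corticosterone (median 6.27). In trained rats the vehicle libraries held 1.66, 1.77, 1.78, 2.15 and 2.18 CPM, and the corticosterone libraries ranged from 3.87 to 9.54 CPM (median 5.55). The highest value of all was that of trained corticosterone replicate 28. Without training the fold change was 3.11, and with training it was also 3.11 (averaged log2 fold change 1.64 ± 0.13, SE).

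Member 3 was the only member with both a fold change over 2 and a level near 100 CPM. In untrained rats it ranged from 76.2 to 112 CPM with vehicle (median 85.9) and from 174 to 287 CPM with corticosterone (median 216). In trained rats the vehicle libraries held 67.6, 89.8, 106, 113 and 124 CPM, and the corticosterone libraries ranged from 155 to 263 CPM (median 205). No vehicle library reached the lowest corticosterone library. Its fold change was 2.56 without training and 2.06 with it (averaged log2 fold change 1.2 ± 0.10, SE).

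**Figure D1:**
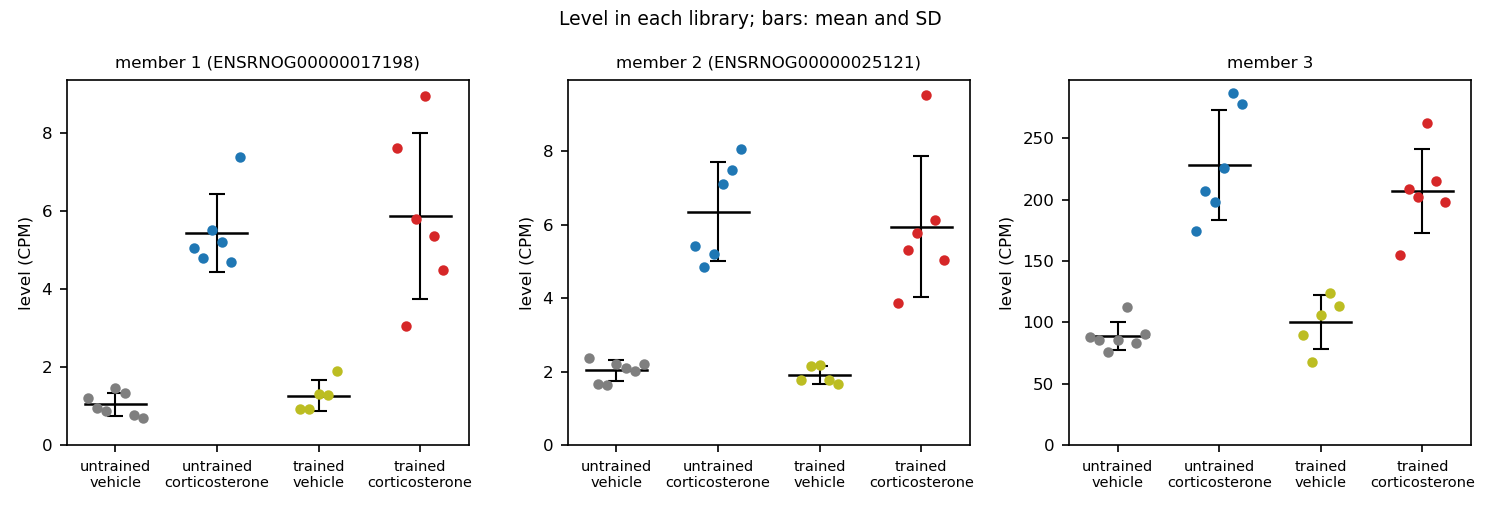
Level in CPM (linear axes from 0) of the 3 members with the largest averaged fold change, with 1 point per library in each of the 4 groups and black bars for the group mean and SD. In all 3, every corticosterone library lies above every vehicle library in both training states.

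The next members by size were closer to a fold of 2. Member 4 went from 0.917 ± 0.260 (SD, n = 7) to 1.64 ± 0.502 CPM (SD, n = 6) in untrained rats and from 0.777 ± 0.205 (SD, n = 5) to 1.74 ± 0.215 CPM (SD, n = 6) in trained rats. At 8 to 42 reads per library it had few reads to rest on. Member 5 went from 14.2 ± 2.41 to 29.1 ± 3.49 CPM in untrained and from 16.1 ± 1.40 to 28.2 ± 5.99 CPM in trained rats, over the same numbers of libraries. Member 6 went from 5.36 ± 1.90 to 9.92 ± 3.02 CPM in untrained and from 5.84 ± 1.61 to 11.2 ± 3.25 CPM in trained rats. Its fold was 1.88, its vehicle and corticosterone groups overlapped in both states, and it had 133 pairs, the fewest the rule allows. In untrained corticosterone rats the libraries that stood apart held 10.3, 13.1 and 13.8 CPM, and the others 6.65 to 8.08 CPM. In trained corticosterone rats they held 11.9, 14.6 and 15.4 CPM, and the others 7.74 to 9.18 CPM. Vehicle replicates 17 (9.35 CPM) and 5 (8.14 CPM), which also stood apart, were the highest of their groups. What part these libraries had in the fold of member 6 was not tested. Member 7, in contrast, had all 144 pairs at a fold of 1.84. It went from 3.57 ± 0.593 to 6.69 ± 1.43 CPM in untrained and from 3.21 ± 0.418 to 5.88 ± 0.489 CPM in trained rats. Members 8, 9 and 10 had folds of 1.79, 1.79 and 1.78 averaged over training.

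The members at the other end of the range were abundant and moved little. Member 68, with a mean level of 466.4 CPM, ranged from 429 to 472 CPM with vehicle and from 448 to 486 CPM with corticosterone in untrained rats. In trained rats it held 432 to 467 CPM with vehicle and 472 to 508 CPM with corticosterone. Its averaged fold was 1.06, and it had 134 of 144 pairs. Member 63 averaged 228 ± 14.5 CPM in untrained vehicle and 263 ± 13.2 CPM in untrained corticosterone rats, and with training these values were 223 ± 14.2 and 254 ± 11.0 CPM (SD over 7, 6, 5 and 6 libraries). Member 61 averaged 192 ± 9.70 and 215 ± 20.1 CPM in untrained rats, and 186 ± 15.0 and 222 ± 12 CPM in trained rats. These abundant members show that the pair rule selects on order and not on size: it admits a small difference where the libraries of a group lie close together. Members 54, 62, 64, 53, 57 and 51, which with members 3, 61, 63 and 68 had the 10 highest levels, had averaged folds between 1.12 and 1.19.

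Over all 68 members, 3 had an averaged fold of at least 2, 19 lay between 1.5 and 2, 23 between 1.25 and 1.5, and 23 under 1.25. Their mean levels ran from 1.27 to 466.4 CPM with a median of 21.6, close to the median of 21.2 over the 14838 genes tested. The 34 members of lower level had a median fold of 1.53 and the 34 of higher level one of 1.2. By edgeR's quasi-likelihood test with Benjamini-Hochberg adjustment over all genes, 64 of the 68 passed an adjusted p of 0.05 for the effect averaged over training. That test called 138 of all genes (0.93%), of which 101 (0.681%) were higher. Nothing is read from this count, since the rule used the same difference. The 4 members that did not pass it were members 52, 55, 67 and 68, with folds of 1.18, 1.18, 1.08 and 1.06. Without the 8 libraries that stood apart, 40 of the members and 47 of all genes were called, with 16 libraries in place of 24. The fewer libraries and the part of these 8 cannot be told apart in that count.

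The boundary of the rule fell within a dense run of genes. At the lowest share, 92.4%, stood 9 members, and 6 genes just outside it had 91.7%, which is 132 pairs. Members 6, 35 and 50 are examples inside, and member 50 averaged 20.4 CPM in untrained vehicle, 24.6 in untrained corticosterone, 21.0 in trained vehicle and 24.9 in trained corticosterone rats. A gene just outside, taken by the order of its identifier, averaged 26.6, 33.9, 25.8 and 34.5 CPM in the same order. At the other end, 20 members had all 144 pairs.

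**Figure D2:**
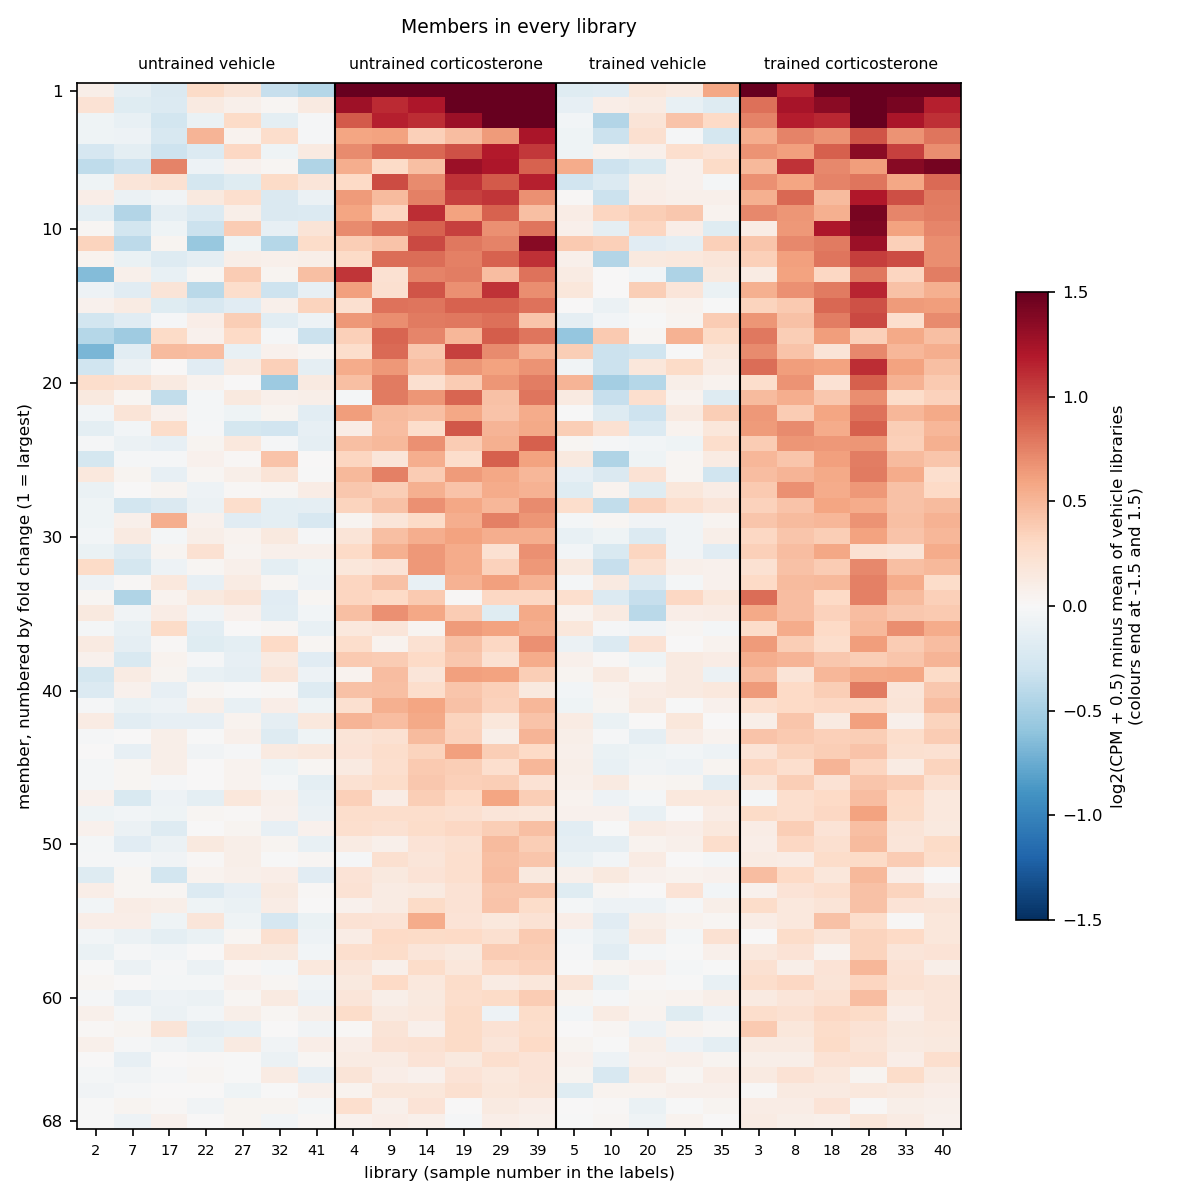
The 68 members (rows, ordered by averaged fold change) in the 24 libraries (columns, by group), coloured by log2(CPM + 0.5) minus the mean of the 12 vehicle libraries, with the colours ending at a difference of 1.5. Corticosterone libraries are shifted up over the whole list, and trained corticosterone replicate 28 holds the highest value of all libraries for 29 members.

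In the summed level of the members, each corticosterone library lay above each vehicle library. The choice of members favours such a separation, so the sums are a description, and abundant members weigh most in them. Without training, the members summed to 2513 ± 56.8 CPM after vehicle (SD, n = 7) and to 3170 ± 146 CPM after corticosterone (SD, n = 6). With training, the sums were 2543 ± 51.0 CPM after vehicle (SD, n = 5) and 3160 ± 157 CPM after corticosterone (SD, n = 6). The lowest corticosterone library was at 2958 CPM and the highest vehicle library at 2608 CPM. Between 44 and 66 members in each corticosterone library lay above all 12 vehicle libraries, which the choice of members favours. Of the 13796 genes that reached the mean level, 5.05% to 14.5% did so. In untrained corticosterone rats the 3 libraries that stood apart had the highest sums, 3219, 3282 and 3362 CPM, against 2958, 3088 and 3110 CPM in the other 3. In trained corticosterone rats they did not, with 3069, 3101 and 3120 CPM against 3028, 3177 and 3463 CPM. The 2 vehicle libraries that stood apart, at 2510 and 2522 CPM, lay inside the range of their groups.

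**Figure D3:**
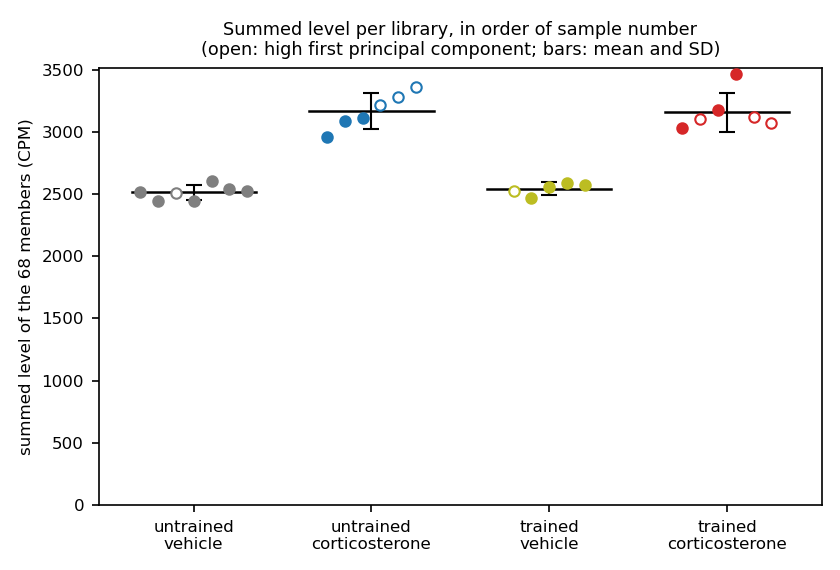
Summed CPM of the 68 members in each library (1 point each), by group, with open symbols for the 8 libraries that stand apart on the first principal component and bars for the group mean and SD. All corticosterone libraries lie between 2958 and 3463 CPM and all vehicle libraries between 2444 and 2608 CPM.

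Whether the pairing of higher values held in each training state was read from the pairs of that state alone. Each state's own pair count enters the rule, so these counts are a description. In untrained rats 39 of 42 pairs were needed to reach 92%, and 56 members did so. In trained rats 28 of 30 were needed, and 58 members did so. Over all genes, the same requirement was met by 1.01% in untrained rats alone and by 1.43% in trained rats alone. Both states were met by 46 members, untrained only by 10, trained only by 12, and neither by 0. The lowest share of pairs for any member was 83.3% in untrained and 80% in trained rats. All corticosterone libraries lay above all vehicle libraries of the same state for 33 members in untrained rats, for 42 in trained rats and for 24 in both, with fewer pairs to satisfy in trained rats. Of the 13796 genes that reached the mean level, 0.333% did so in untrained rats, 0.616% in trained rats and 0.174% in both.

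A choice made in only 1 training state can be followed in the other, whose libraries took no part in the pair count. They do enter the mean level of at least 1 CPM over all libraries. The edgeR model also shares its estimate of spread between the states. In each state, the libraries that stood apart on the first principal component made up a larger share of corticosterone than of vehicle libraries. The states are therefore alike in this imbalance. The lists were not chosen or followed again without these libraries, so their part in the values below was not tested. The pair rule in untrained rats alone was met by 140 genes, members or not. In trained rats, 49 of these 140 (35%) also met it, against 1.43% of all genes, and 126 had more than 50% of pairs higher, against 49.6% of all genes. Their median log2 fold change in trained rats was 0.19, against 0.00 over all genes tested, and 23 of them (16.4%) were called higher there by edgeR at an adjusted p of 0.05, against 0.162% of all genes. In the other direction, 197 genes met the rule in trained rats alone. In untrained rats 49 of these 197 (24.9%) also met it, against 1.01% of all genes. More than 50% of pairs were higher there for 149 of the 197, against 49.3% of all genes. Their median log2 fold change there was 0.10, and 39 of them (19.8%) were called higher, against 0.323% of all genes. The 49 genes that met the rule in both states were 46 members and the 3 identifiers that the rule leaves out. The medians of 0.19 and 0.10, each from the state that had not chosen the list, lay under the median of 0.43 found for the members. The members are a different set of genes, which both states chose. The lists' fold changes in the state that chose them are not given, so no difference between states is read from these medians.

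The size of the difference in each state is a description, since the rule used the pairs of both. The members' log2 fold changes had a median of 0.43 in either state, a fold of 1.35, and all 68 members were higher with corticosterone in both. By edgeR with Benjamini-Hochberg adjustment, 41 members passed an adjusted p of 0.05 in untrained rats and 23 in trained rats. Of all genes, 0.357% were called in untrained rats (0.323% higher) and 0.162% in trained rats (0.162% higher). Both states called 20 members, untrained only 21, trained only 3, and neither 24. The trained count rests on 5 vehicle libraries, and it fell to 12 without trained vehicle replicate 10, 14 without replicate 25 and 15 without replicate 20. The untrained count moved as well, from 28 to 45 members with each library left out in turn. Without the 8 libraries that stood apart, 9 members and 10 of all genes were called in untrained rats, and 13 members and 15 of all genes in trained rats. The members' median log2 fold changes were then 0.41 and 0.47, and all 68 were still higher with corticosterone in both states. These counts do not show a difference between states, which the interaction tests directly.

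**Figure D4:**
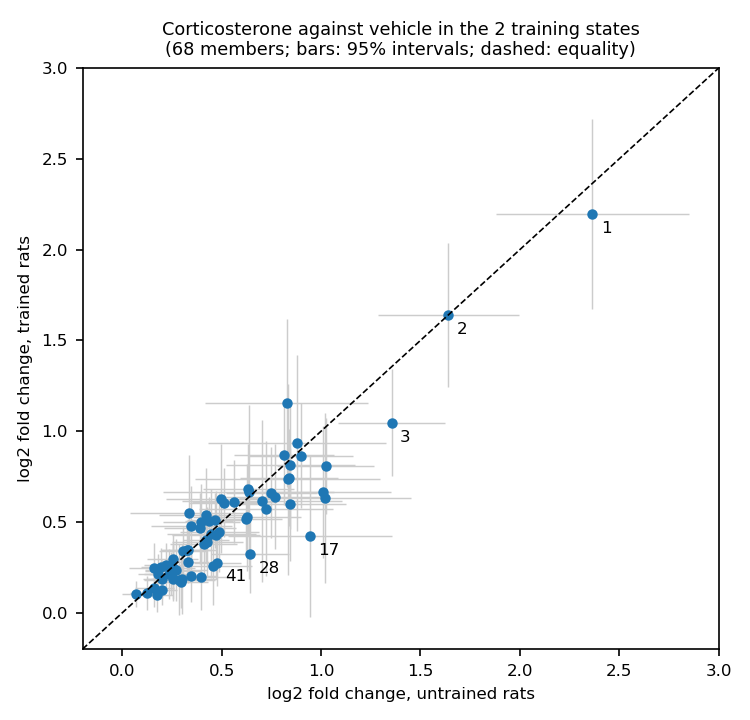
Log2 fold change of corticosterone over vehicle in trained rats (vertical axis) against untrained rats (horizontal axis), 1 point per member, with grey bars for the 95% intervals and a dashed line of equal change. The members lie along the line, with 44 below it and 24 above it.

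The interaction is the log2 fold change in trained rats minus that in untrained rats. By edgeR's quasi-likelihood test with Benjamini-Hochberg adjustment, 0 of the 68 members and 0 of the 14838 genes (0%) passed an adjusted p of 0.05. The smallest adjusted p among the members was 0.962, and over all genes it was 0.378. DESeq2 and limma-voom also called 0 genes. At an unadjusted p under 0.05 stood 2 members, against 634 of all genes (4.27%). The difference was negative, meaning a larger change in untrained rats, for 44 members and positive for 24, with a median of -0.03. Over all genes 50.4% were positive. The median size of the difference, sign aside, was 0.071 in the members and 0.083 over all genes. It was within 0.1 of zero on the log2 scale for 43 members and within 0.2 for 58, and the rule favours such small differences. Precision was a further limit, since the median half-width of the 95% interval was 0.27, and it was 0.38 in the members of lower level and 0.18 in those of higher level. For 54 members the whole interval lay within a 1.5-fold difference between states in either direction, and for 66 within a 2-fold difference. Of the 14838 genes tested, 10860 and 12977 did so, and likeness between the states is not read from these counts.

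The lean to larger changes in untrained rats turned with the choice of libraries. Without the 8 libraries that stood apart, 46 members had the larger change in trained rats and 22 in untrained rats, and the median difference was 0.08. Without trained corticosterone replicate 28 alone, 51 were larger in untrained rats, the median difference was -0.08, and 8 members had an unadjusted p under 0.05, all larger in untrained rats. That is 11.8% of the members, against 3.98% of all genes in the same fit. The smallest adjusted p among members was 0.965 without that library. No member passed under either choice.

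Member 41 had the smallest interaction p of the list. In untrained rats it ranged from 19.2 to 22.4 CPM with vehicle (median 19.9) and from 24.6 to 31.5 CPM with corticosterone (median 29). In trained rats the vehicle libraries held 19.8, 20.7, 21.4, 21.7 and 22.8 CPM, and the corticosterone libraries ranged from 23.8 to 28.9 CPM (median 25.8). The groups did not overlap in either state, but the trained corticosterone libraries sat lower. The folds were 1.39 and 1.21, and the interaction was -0.20 ± 0.08 (SE), with an adjusted p of 0.962 by edgeR.

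Member 28 followed, and here the vehicle groups differed. In untrained rats it ranged from 21.9 to 31.9 CPM with vehicle (median 24.2) and from 33.5 to 43.8 CPM with corticosterone (median 39). In trained rats the vehicle libraries held 20.5, 30.2, 31.7, 32 and 33.8 CPM, and the corticosterone libraries ranged from 33.8 to 40.3 CPM (median 36.7). Of the 5 trained vehicle libraries, 4 lay above the untrained median, and the remaining one, replicate 10, lay under every untrained vehicle library. The folds were 1.56 and 1.25, and the interaction was -0.32 ± 0.14 (SE), with an adjusted p of 0.962 by edgeR.

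Member 17 had the most negative difference, -0.52 ± 0.29 (SE), at 13 to 55 reads per library. With vehicle it ranged from 0.962 to 2.11 CPM in untrained rats, and the trained libraries held 0.921, 1.67, 2.09, 2.29 and 2.54 CPM. With corticosterone it ranged from 2.21 to 3.49 CPM in untrained and from 2.21 to 3.17 CPM in trained rats. In trained rats only 3 of 6 corticosterone libraries lay above every vehicle library, while in untrained rats 6 of 6 did. Its folds were 1.92 and 1.34, its 95% interval ran from -1.13 to 0.09, and its adjusted p was 0.962. The remaining 2 members among the 5 with the smallest interaction p were members 47 (-0.20 ± 0.12, SE) and 3 (-0.31 ± 0.19, SE). At the other end, member 4 had the most positive difference, 0.33 ± 0.30 (SE). For members 1 and 2 the interaction was -0.17 ± 0.35 and 0.00 ± 0.26 (SE), with 95% intervals from -0.88 to 0.55 and from -0.53 to 0.53.

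The training comparisons were set beside those of all genes, and the rule favours genes that training did not move. Between trained and untrained corticosterone rats, edgeR called 0 members and 0 of all genes at an adjusted p of 0.05, and at an unadjusted p under 0.05 stood 1 member, against 6.09% of all genes. That member was member 41, at a log2 fold change of -0.14. Between trained and untrained vehicle rats 0 members and 0 genes were called, and 2 members had an unadjusted p under 0.05, against 2.28% of all genes. These were member 9 (0.53 ± 0.18, SE) and member 28 (0.25 ± 0.10, SE), both with an adjusted p of 0.9999 by edgeR. Averaged over treatment 0 members and 0 genes were called, with 3 members at an unadjusted p under 0.05, against 3.27% of all genes. DESeq2 and limma-voom called 0 genes in all 3 of these comparisons. Member 9 averaged 1.89 ± 0.263 CPM in untrained vehicle and 2.72 ± 0.350 CPM in trained vehicle rats (SD, n = 7 and 5), and its corticosterone groups averaged 3.81 ± 0.888 and 4.31 ± 1.21 CPM (SD, n = 6 each). Among vehicle rats this was the member with the largest fitted difference between training states, and it did not pass the threshold.

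The spread between libraries was compared as the standard deviation (SD) of log2 CPM within a group. The median SD over the members was 0.134 in untrained vehicle, 0.151 in untrained corticosterone, 0.137 in trained vehicle and 0.165 in trained corticosterone rats. Over all genes tested the medians were 0.130, 0.137, 0.126 and 0.138 in the same order. Among corticosterone rats, the ratio of trained to untrained SD had a median of 1.02 over the members and 1.01 over all genes, and 34 members were above 1 and 34 below it. Among vehicle rats the median ratio was 0.998, also with 34 members on each side. The test of spread compared absolute deviations from the group mean with limma over all genes. It called 0 members and 0 genes in corticosterone rats at a Benjamini-Hochberg adjusted p of 0.05, with 10 members at an unadjusted p under 0.05, against 8.08% of all genes. Of these 10 members, 6 spread more in trained and 4 in untrained rats, and the smallest adjusted p among members was 0.4663. In vehicle rats limma called 0 members and 0 genes, with 5 members at an unadjusted p under 0.05, against 6.27% of all genes. With single libraries left out in turn, it called up to 7 genes in corticosterone and up to 15 in vehicle rats, and 0 members each time. With deviations from the group median in place of the mean, 2 members in corticosterone and 1 in vehicle rats had an unadjusted p under 0.05, against 3.19% and 1.52% of all genes under the same setting.

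**Figure D5:**
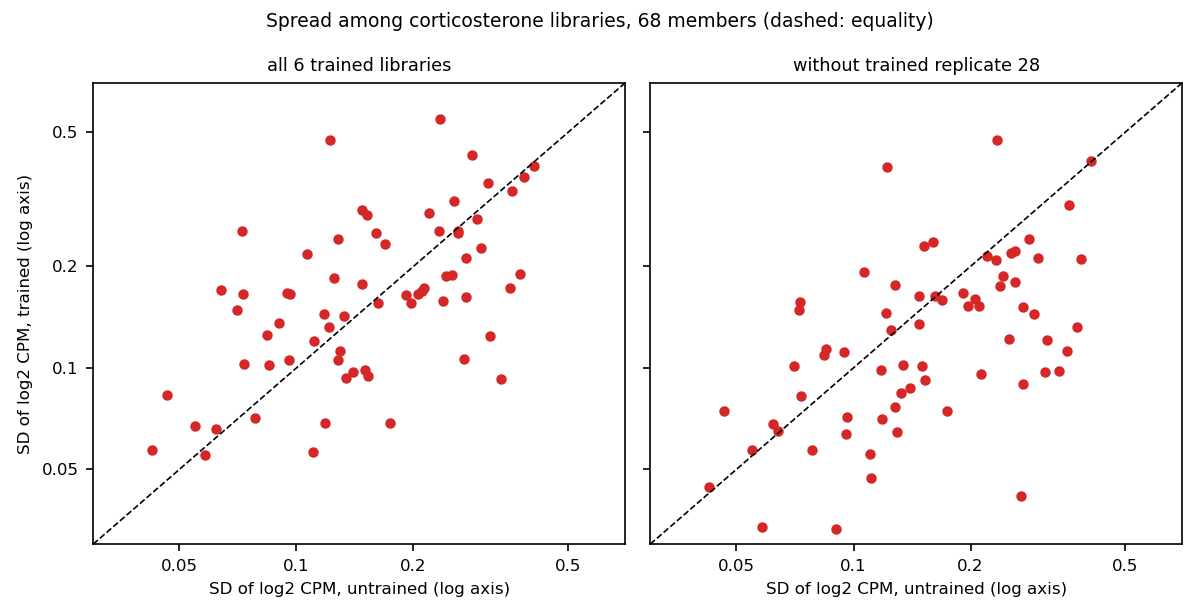
SD of log2 CPM among trained corticosterone libraries (vertical) against untrained corticosterone libraries (horizontal), 1 point per member, on log axes with a dashed line of equal spread; the left panel uses all 6 trained libraries and the right panel leaves out replicate 28. With all libraries 34 members lie above the line, and without replicate 28 the number is 23.

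Single members differed widely in spread in either direction. Member 10 had the highest ratio, 3.89. In untrained corticosterone rats it stayed between 32.1 and 40.8 CPM (median 35.2), while in trained corticosterone rats it ran from 21.3 to 52.9 CPM (median 32.3). The low trained library, replicate 3 at 21.3 CPM, lay within the range of trained vehicle libraries, which held 17.4, 17.9, 20.9, 21.3 and 24.8 CPM, and the high ones were replicates 18 and 28. Its ratio was still 3.22 without replicate 28, and its adjusted p in the limma test of spread was 0.4663. Members 19 and 48 had ratios of 3.51 and 2.66, which became 2.05 and 1.02 without replicate 28. In member 48 that library held 29.6 CPM, and the other 5 trained corticosterone libraries lay between 21.6 and 24.1 CPM.

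At the low end stood members 35, 43 and 29, with ratios of 0.276, 0.393 and 0.394. Member 35 ran from 12.6 to 23.5 CPM in untrained corticosterone rats (median 20.9) and only from 18.4 to 21.6 CPM in trained corticosterone rats (median 19.7). The low untrained library was replicate 29, and it lay under every untrained vehicle library, which ran from 12.9 to 16.0 CPM. Member 43 ran from 17.8 to 24.1 CPM in untrained and from 20.2 to 22.7 CPM in trained corticosterone rats. In member 29 the untrained corticosterone libraries that stood apart held 12.6, 13.8 and 14.6 CPM and the other 3 held 8.71, 9.64 and 10.5 CPM. Its trained corticosterone libraries held 11.4 to 13.8 CPM, with no such division. What part that division had in the ratio was not tested.

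A single library weighed on the members' spread in the trained corticosterone group. Replicate 28 was the highest of its group for 44 of the 68 members, against 15.9% of all genes tested, and the highest of all 24 libraries for 29 members. The member counts used CPM over the sum of gene counts, while the percentage over all genes used log2 CPM with TMM factors. Which library is highest can depend on that choice. The median over members of log2 CPM above the vehicle mean was 0.64 in replicate 28, and in the other trained corticosterone libraries it was 0.36 to 0.43. In untrained corticosterone rats it was 0.31 to 0.51. It was not among the 8 libraries that stood apart, and its top-loading gene stood at 16.7 CPM. Without replicate 28, the median SD of the members in trained corticosterone rats was 0.121, the median ratio to untrained rats was 0.778, and 23 of 68 members had the larger SD in trained rats. With each corticosterone library left out in turn, that ratio ran from 0.778 to 1.09. Under the other settings, among them the fit without the 8 libraries that stood apart, it ran from 0.910 to 1.29. In the limma test of spread, 6 members and 8.22% of all genes had an unadjusted p under 0.05 without replicate 28. With all libraries these were 10 members and 8.08%. Without the 8 libraries that stood apart they were 13 members (19.1%) and 13.1% of all genes. Replicate 28 was singled out as extreme, and leaving out such a library tends to lower the SD. The correlation of members with each other within a group, taken as the mean over the 2278 pairs of members, was 0.337 in trained corticosterone rats and 0.0254 without that library. It was 0.0947 in untrained corticosterone, 0.0728 in untrained vehicle and 0.0499 in trained vehicle rats. Over all genes it was near 0 in every group, but positive and negative pairs cancel in that mean. The members were chosen for a shared direction, so the value over all genes is no background for theirs. These correlations are descriptions over 5 to 7 libraries that share their sequencing depth and library factors.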

How the data were processed

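The authors deposited raw counts per gene, whole numbers in 1 table of 24 libraries. Per the labels' protocols, mRNA was enriched, and paired ends of stranded libraries were read. FastQC, MultiQC, STAR 2.7.0b, HTSeq 0.6.1 and build rn6 are named per the submitters' processing notes. For the annotation release and the counter's strand setting, nothing is given in the sources used here. Counts of overlapping, antisense or near-identical genes are therefore uncertain. The 5 summary rows of the read counter, on average 39.0% of a column, were left out. Groups came from sample titles. The column of untrained vehicle replicate 41 stands among the trained vehicle columns, and its label was followed.

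Members and lists were chosen with earlier results of these data known. Genes were filtered with filterByExpr (14838 remained, with all 68 members) and tested in 1 model of 4 group means with edgeR 4.0.16 in R 4.3.3 (TMM factors, quasi-likelihood test, Benjamini-Hochberg adjustment over all genes, threshold 0.05). Standard errors are Wald errors. Spread was tested with limma 3.58.1 on absolute deviations of log2 CPM (prior count 2), scaled for group size. Members named were the 10 of largest fold and of highest level, the 5 of smallest interaction p, 3 at each end of the SD ratio and 3 at the rule's boundary. Members 52, 55 and 67 were named after their values were seen. No table paired identifiers with symbols, so pathway and marker lists could not be looked up, 2 identifiers are printed, and no sequence is shown. Alternatives were RLE factors, no filter, DESeq2 1.42.0, limma-voom, 1 surrogate variable (sva 3.50.0), other thresholds and each library left out. Scripts were tested on simulated data.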

Additional observations from a re-analysis of the deposited data

Results flagged for a closer look

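In 128 groups of 5 to 7 values (29 members and 3 summaries of libraries, by group), 16 had a highest or lowest library far from the rest by Dixon's criterion. Chance alone gives about 1 such group in 20, and the values of 1 library are not independent of each other. Trained corticosterone replicate 28 stood high in member 9 (6.74 CPM), in member 48 (29.6 CPM), in the members' summed level (3463 CPM) and in the median over members of log2 CPM above the vehicle mean (0.64). Untrained corticosterone replicate 39 stood high in member 1 (7.38 CPM) and member 4 (2.63 CPM). Untrained vehicle replicate 17, one of the 8 libraries that stood apart, was high in member 6 (9.35 CPM) and member 29 (12.6 CPM). Untrained vehicle replicate 27 was high in member 3 (112 CPM) and member 28 (31.9 CPM). Trained vehicle replicate 10 was low in member 8 (5.09 CPM), member 28 (20.5 CPM) and member 64 (70.3 CPM). Trained vehicle replicate 20 was low in member 35 (10.8 CPM). Trained corticosterone replicate 18 was high in member 63 (275 CPM), and untrained corticosterone replicate 19 was low in member 68 (448 CPM).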

How the results depend on the processing

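No paired analysis was possible because each sample number occurs in only 1 group. The number of members was 44 at a share of 95% and 61 to 88 with each library left out in turn. The counts of 0 called genes in the interaction and the 3 training comparisons stayed at 0 under every alternative run. DESeq2 called 89 genes in untrained rats and 60 genes and 38 members in trained rats. Without the 8 libraries that stood apart, an alternative chosen after seeing the data, 47 genes and 40 members were called on average, 10 genes and 9 members in untrained rats and 15 genes and 13 members in trained rats, and the median difference between states was 0.076. With each library left out in turn, 14 to 27 genes and 12 to 25 members were called in trained rats and 33 to 62 genes in untrained rats, with 33 or 34 without untrained vehicle replicates 7 or 41 or untrained corticosterone replicates 29 or 39, and with 14 in trained rats without trained vehicle replicate 10. Members with an unadjusted interaction p under 0.05 numbered 0 to 8, with 0 without untrained corticosterone replicate 14 or trained vehicle replicate 20 and 8 without trained corticosterone replicate 28. The mean correlation in trained corticosterone rats ran from 0.0254 to 0.406, also chosen after seeing the data. The interaction of ENSRNOG00000025121 was 0.00072 with RLE factors, 0.0056 with no filter, 0.0019 with DESeq2, 0.42 without the 8 libraries and -0.20 to 0.10 with each left out. That of ENSRNOG00000017198 was 0.20 without the 8 libraries and -0.34 to 0.033 with each left out. The spread test called 1 gene in vehicle rats with column-sum totals, 3 without the 8 libraries and 0 to 15 with each left out (15 without trained vehicle replicate 20, 9 without replicate 5), with 3 to 7 members at an unadjusted p under 0.05. In corticosterone rats it called 0 to 7 genes (7 without trained replicate 18, 4 without untrained replicate 29), with 6 to 11 such members. Deviations from the group median gave 2 such members in corticosterone and 1 in vehicle rats. Without the 8 libraries that stood apart there were 13 in corticosterone and 6 in vehicle rats. The causes were not tested. Of all values recomputed, 723 kept their direction and side of the threshold, or moved little, and 65 did not. Members of low level limit what can be said of the interaction, since their reads are few.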
